A study of Mus musculus with 6 samples.

Results

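The proteasome is the large protease that degrades ubiquitin-tagged proteins. The 39 genes described here encode its subunits, its activators and the assembly factor Pomp. They were taken by gene symbol from the 40213 rows of the deposited count files, and all 39 had a row and passed the expression filter that left 12893 tested genes. They were grouped by role. The immunoproteasome set held 5 genes (Psmb8, Psmb9, Psmb10, Psme1 and Psme2), the constitutive core 14, the regulatory particle 17, other activators 2 (Psme3 and Psme4), and Pomp stood alone. The regulatory particle subunits Sem1 and Adrm1 are not among the 17 and are given with the assembly and regulatory factors.

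RNA came from macrophages cultured from bone marrow of C57BL/6 mice. Precursors had grown for 4 days with 25 ng/ml of the growth factor M-CSF and 10% serum, which yields bone marrow-derived macrophages. The 3 MNP samples then spent 24 h with 50 µg of polystyrene micro- and nanoplastic particles, in a volume the labels do not give. The 3 control samples are listed with the same 24 h and had no particles. The mouse strain, the cytokine and the serum were common to both groups, and the labels give neither the age of the mice nor whether the replicates were separate animals. P-values therefore measure the spread between these 6 libraries, which may be technical.

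Proteins enter the 20S core, a barrel of stacked rings whose outer rings are built of alpha subunits and whose inner rings of beta subunits. Only 3 kinds of beta subunit cut peptide bonds: Psmb5 (chymotrypsin-like), Psmb6 (caspase-like) and Psmb7 (trypsin-like). In cells of the immune system, and under interferon gamma, newly built cores take in Psmb8, Psmb9 and Psmb10 in their place, and Psme1 and Psme2 form a ring-shaped activator that can cap the core. The resulting immunoproteasome is known for making peptides suited to MHC class I, and macrophages carry both forms. The regulatory particle sits on the end of the core, where its ATPases unfold substrates and its other subunits bind and remove ubiquitin.

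RefSeq promoter windows (build GRCm38.p6, from 250 bases before to 50 after a start site) matched 33 of the 39 genes, with 36 windows in all, and Psmb7 had none. Shown here are 4 of them, up to the last base before the start site, because they belong to subunits that replace each other in the core and whose transcripts moved apart after MNP. Capitals mark matches, on either strand, to 4 motifs: the antioxidant response element TGACNNNGC, the interferon-stimulated response element, the gamma-activated site TTCNNNGAA and the CCAAT box CCAAT. The sequences read 5′ to 3′ on the gene's strand. Psmb5 lies on the minus strand at chr14:54617996-54618245 and Psmb6 on the plus strand at chr11:70525107-70525356. Psmb8, on the plus strand at chr17:34197945-34198194, and Psmb9, on the minus strand at chr17:34187331-34187580, lie near each other within the MHC region.
Psmb5: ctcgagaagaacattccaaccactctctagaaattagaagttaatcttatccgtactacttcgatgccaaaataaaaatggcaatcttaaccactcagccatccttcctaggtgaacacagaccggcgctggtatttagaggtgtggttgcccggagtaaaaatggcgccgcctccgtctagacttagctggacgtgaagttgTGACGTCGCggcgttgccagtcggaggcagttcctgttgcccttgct
Psmb6: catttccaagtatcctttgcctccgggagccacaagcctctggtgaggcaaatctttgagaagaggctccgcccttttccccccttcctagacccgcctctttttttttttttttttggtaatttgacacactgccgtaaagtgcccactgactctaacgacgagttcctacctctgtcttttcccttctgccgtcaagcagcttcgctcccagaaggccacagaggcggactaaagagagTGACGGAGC
Psmb8: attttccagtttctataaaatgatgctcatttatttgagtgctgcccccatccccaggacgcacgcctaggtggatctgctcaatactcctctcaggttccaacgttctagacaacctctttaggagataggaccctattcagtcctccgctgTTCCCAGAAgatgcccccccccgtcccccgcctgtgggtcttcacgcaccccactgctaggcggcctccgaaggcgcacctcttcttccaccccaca
Psmb9: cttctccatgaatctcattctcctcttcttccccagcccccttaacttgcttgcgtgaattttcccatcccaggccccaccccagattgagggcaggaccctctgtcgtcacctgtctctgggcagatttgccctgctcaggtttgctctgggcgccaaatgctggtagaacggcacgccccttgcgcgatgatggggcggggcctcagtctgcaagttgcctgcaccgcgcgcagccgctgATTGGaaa

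Both constitutive catalytic genes with a window, Psmb5 and Psmb6, held an antioxidant response element, beginning 47 and 9 bases before the start site. That motif occurred in 5 of the 36 member windows (13.9%) and in 12.4% of all 32851 windows in the table. The other 3 matches were in Psmc6, Psmd12 and Psme4. Of the 6 windows of the immunoproteasome set, none held this motif. Psmb8 held a gamma-activated site (2 of 36 member windows, 8.3% of all windows). The other match to that motif was in Psmd2, which rose. Psmb3, which rose, and Psmd4, which was not called, held an interferon-stimulated response element. Psme1 held an interferon-stimulated response element on the opposite strand (3 of 36 member windows, 3.44% of all windows), from 10 bases after its start site, within the 30 bases at chr14:55578494-55578523 on the plus strand.
Psme1: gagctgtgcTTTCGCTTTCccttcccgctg

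The only match in Psmb9 was a CCAAT box, which 37.4% of all windows held. The windows of Psmb10 and Psme2 held none of the motifs searched. A match is a description of letters and shows no binding.

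Library totals ran from 20262859 to 23042146 counts, and 1 count was worth 0.0424 to 0.0483 CPM (a gene's count scaled to the size of its library, here with TMM factors). The macrophage markers Lyz2 and Csf1r stood at no less than 12697.2 and 1312.3 CPM in every library. Over all tested genes, edgeR called 8.35% lower and 9.11% higher at an adjusted p under 0.05. Of 8 macrophage markers, 5 were lower and 0 higher after MNP. Cd68, Itgam and Csf1r were not called (log2 fold change 0.25, 0.03 and -0.07). The summed level of all 8 was 19268.8 to 20032.7 CPM in controls and 16920.1 to 17981.6 CPM in MNP samples. Most of that sum was Lyz2 (14779.0 ± 339.0 CPM in controls and 13151.9 ± 446.1 CPM after MNP). By fold change Mrc1 fell most of the 8, from 510.7 ± 28.5 to 267.6 ± 25.1 CPM. Some markers of dendritic cells and neutrophils were lower after MNP. The summed level of 7 dendritic cell markers was 3.69 to 8.04 CPM in controls and 1.53 to 2.84 CPM in MNP samples (2 of 4 tested lower), and that of 7 neutrophil markers was 160.3 to 236.1 and 112.5 to 131.0 CPM (3 of 6 tested lower). S100a9, the neutrophil marker with the highest CPM, fell from 105.7 ± 18.6 to 58.8 ± 6.54 CPM. No marker of these 3 lists was at 0 in all libraries. T and NK cell, B cell, mast cell, stromal and erythroid markers summed to at most 2.11 CPM in any library, and Cd3e and Ncr1 were at 0 in all 6. The part of these cells in the results that follow was not tested, and in bulk samples fewer cells of a type and less RNA per cell cannot be told apart.

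All 5 genes of the immunoproteasome set fell after MNP, by 1.22-fold to 1.54-fold, while 15 of the other 34 genes rose and 0 fell. Across all tested genes, 17.5% were called changed by edgeR at an adjusted p under 0.05, 9.11% as higher and 8.35% as lower. The median log2 fold change was -0.37 in the immunoproteasome set, 0.25 in the 14 genes of the constitutive core and 0.14 in the 17 of the regulatory particle, beside -0.01 for all tested genes. In 26 of the 39 genes the control and MNP libraries did not overlap, while the share over all tested genes was 34.6%. With library totals in place of TMM scaling, 11 of the other 34 rose, 0 fell, and all 5 of the set still fell; over all genes that scaling moved the share of calls that were higher from 52.2% to 28.1%. The medians were then -0.46 in the set, 0.16 in the constitutive core and 0.05 in the regulatory particle, beside -0.10 for all tested genes.

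**Figure D1:**
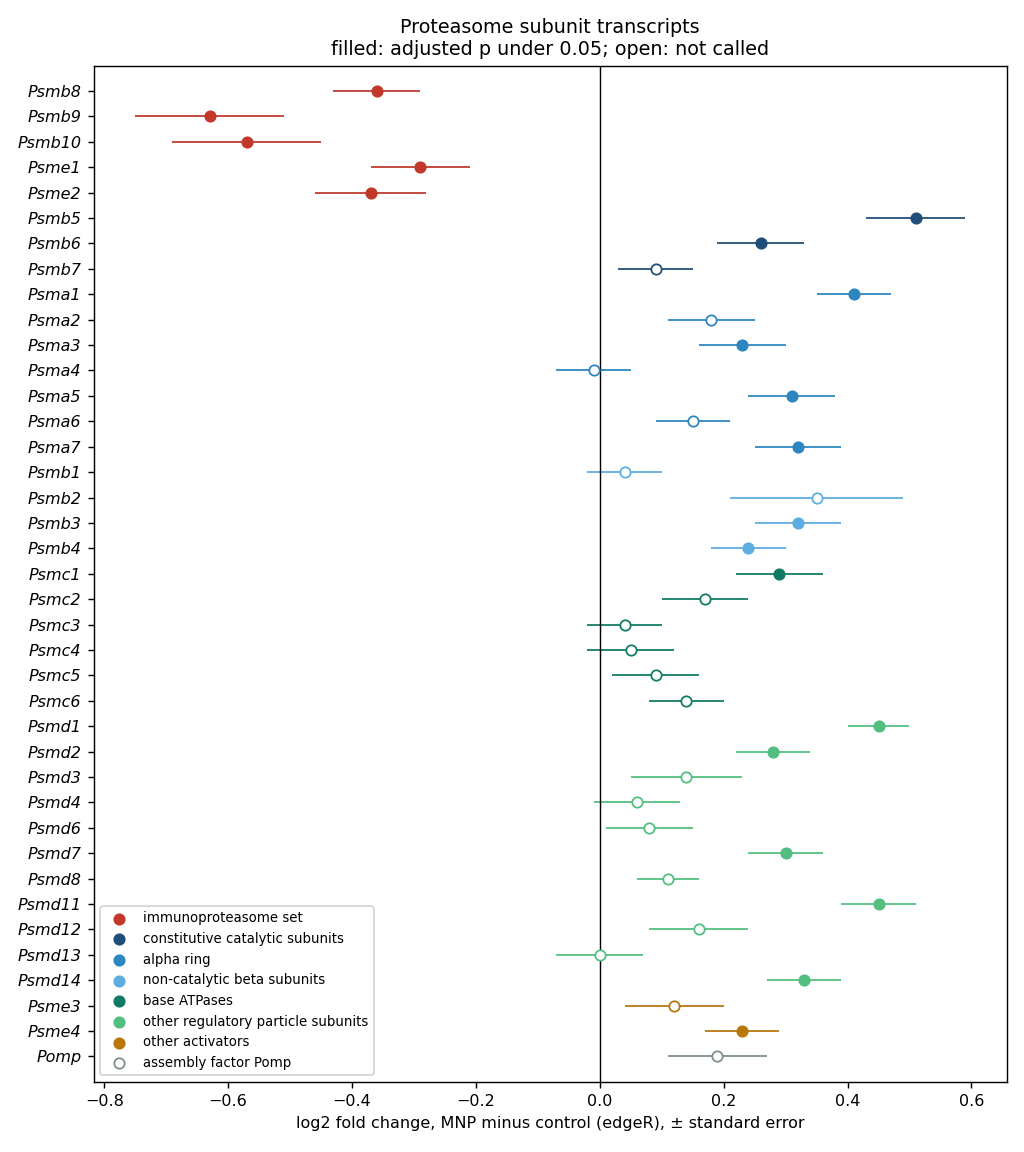
Log2 fold change, MNP minus control, of each of the 39 genes with its standard error from edgeR, coloured by role. The 5 immunoproteasome genes lie between -0.63 and -0.29, and the others between -0.01 and 0.51; filled points are genes called changed.

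Psmb9, the immune replacement for Psmb6, had the largest fall. Its level was 17.8, 14.7 and 15.7 CPM in controls 1 to 3 and 11, 9.65 and 10.5 CPM in MNP samples 1 to 3. Every MNP library was below every control, a 1.54-fold decrease (log2 fold change -0.63 ± 0.12 SE, edgeR adjusted p = 0.00189). The annotated exons of Psmb9 share 212 bases with Tap1 on the opposite strand. Tap1, a subunit of the peptide transporter that feeds MHC class I, also fell (37.5 ± 4.97 to 23.5 ± 1.34 CPM, SD, n = 3). With no strand setting stated, reads from that stretch cannot be assigned to either gene.

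Psmb10, the immune replacement for Psmb7, stood at 42.2, 32.7 and 32.1 CPM in controls and 27.6, 23.1 and 21.5 CPM after MNP. The groups did not overlap, and the decrease was 1.48-fold (log2 -0.57 ± 0.12, edgeR adjusted p = 0.00521). Psmb8, the immune replacement for Psmb5, had the highest level per kilobase of these 3 transcripts (48.2 CPM per kb in controls, against 27.2 for Psmb10 and 11.9 for Psmb9). Its level was 84.0, 78.0 and 73.4 CPM in controls and 62.6, 56.5 and 64.6 CPM after MNP. That decrease was 1.28-fold (log2 -0.36 ± 0.07, edgeR adjusted p = 0.0045). The exons of Psmb8 share 498 bases with the antisense gene Gm20496 on the opposite strand, which has no row here.

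Both subunits of the interferon-inducible activator fell as well. Psme1 was at 125.5, 109.6 and 111.2 CPM in controls and 90.2, 88.9 and 104.2 CPM in MNP samples (1.22-fold lower, log2 -0.29 ± 0.08, edgeR adjusted p = 0.0175). Psme2 was at 82.9, 66.0 and 64.1 CPM in controls and 54.9, 55.3 and 54.8 CPM after MNP (1.29-fold lower, log2 -0.37 ± 0.09, edgeR adjusted p = 0.0127). The MNP libraries were below every control for both genes, and MNP sample 3 came nearest to the controls for Psme1.

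These 2 calls were the least firm of the 5. Without MNP sample 2 neither passed (log2 -0.24, edgeR adjusted p = 0.108 for Psme1 and -0.37, 0.0528 for Psme2), which left 3 of 5 called. Psme1 also missed without MNP sample 1 (edgeR adjusted p = 0.0729), and Psme2 without MNP sample 3 (0.0585). Psme2 has a copy, Psme2b, that is 99.3% identical over the whole reading frame and had its own counts. Psme2b fell from 15.9 ± 1.99 to 11.5 ± 1.25 CPM (edgeR adjusted p = 0.0205), and Psme2 summed with Psme2b fell too (log2 -0.39, edgeR adjusted p = 0.00664). How reads were shared between the copies is not given in the sources used here, so their separate levels are uncertain.

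Control 1 held the highest value of all 6 libraries for each of the 5 genes. The summed level of the set was 352.4 CPM in control 1, 300.8 and 296.5 CPM in controls 2 and 3, and 246.3, 233.6 and 255.6 CPM in MNP samples 1 to 3. Without control 1 all 5 genes were still called lower, with a median log2 fold change of -0.30.

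**Figure D2:**
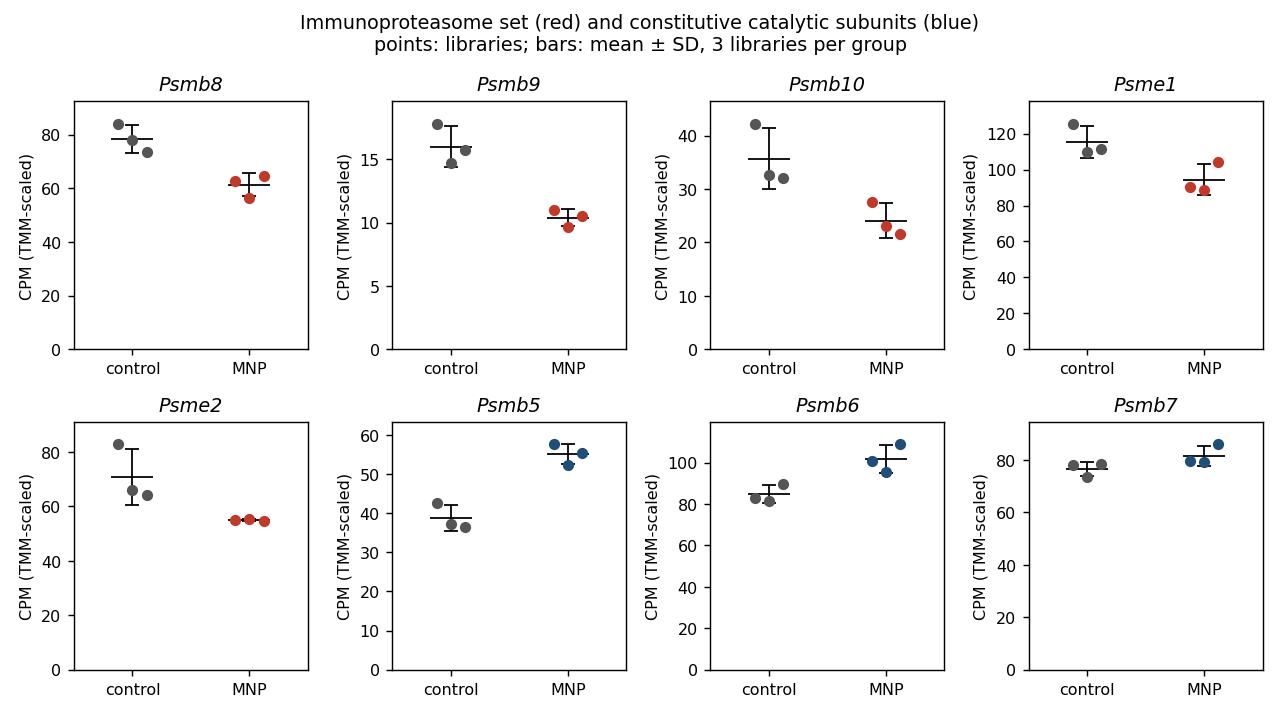
TMM-scaled CPM in each library for the immunoproteasome set (red in MNP) and the constitutive catalytic subunits (blue in MNP); bars are mean ± SD of 3 libraries and each axis starts at 0. For all 8 genes the MNP points lie wholly below (red) or above (blue) the control points, although Psmb7 was not called.

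Of the 3 constitutive catalytic subunits, 2 rose and 1 was not called. Psmb5, the chymotrypsin-like subunit, was at 42.7, 37.3 and 36.6 CPM in controls and 57.7, 52.4 and 55.4 CPM after MNP. Its increase of 1.42-fold (log2 0.51 ± 0.08, edgeR adjusted p = 0.000604) was the largest among the 39 genes. The processed pseudogene Gm3375, which has no row here, is 98.9% identical to Psmb5 over its reading frame. Psmb6, the caspase-like subunit, went from 83.0, 81.5 and 89.7 CPM to 100.7, 95.5 and 108.9 CPM (1.2-fold higher, log2 0.26 ± 0.07, edgeR adjusted p = 0.0151). Psmb6 lost its call with library totals (log2 0.17, edgeR adjusted p = 0.0698), without control 2 (0.0623) and without MNP sample 3 (0.0802). Psmb7, the trypsin-like subunit, was at 77.9, 73.5 and 78.4 CPM in controls and 79.5, 79.3 and 86.0 CPM after MNP. Although its groups did not overlap, Psmb7 was not called (log2 0.09 ± 0.06, edgeR adjusted p = 0.364). Its exons share 405 bases with Nek6 on the opposite strand.

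Ratios within a library need no scaling between libraries, so each immune subunit was set against the partner it replaces. Psmb8 had 1.97, 2.09 and 2.01 counts per count of Psmb5 in controls and 1.09, 1.08 and 1.17 after MNP. That ratio was 1.82-fold lower, with a log2 difference of -0.86 between group means of 1.01 ± 0.04 and 0.15 ± 0.06 (SD, n = 3; exact permutation test, p = 0.1). For Psmb9 per Psmb6 the controls stood at 0.214, 0.18 and 0.175 and the MNP samples at 0.11, 0.101 and 0.0963, a 1.85-fold decrease. Psmb10 per Psmb7 went from 0.542, 0.445 and 0.41 to 0.348, 0.292 and 0.25, a decrease of 1.57-fold. In all 3 pairs every MNP library was below every control. That order, and the p-values that rest on it, were fixed beforehand by the values of the single genes. Within each pair both genes already had groups that did not overlap, in opposite directions. The tests therefore add no evidence beyond those genes. Each two-sided exact permutation test gave p = 0.1 (0.1 after Benjamini-Hochberg adjustment over the 3 pairs), the smallest value that 3 against 3 libraries allow.

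**Figure D3:**
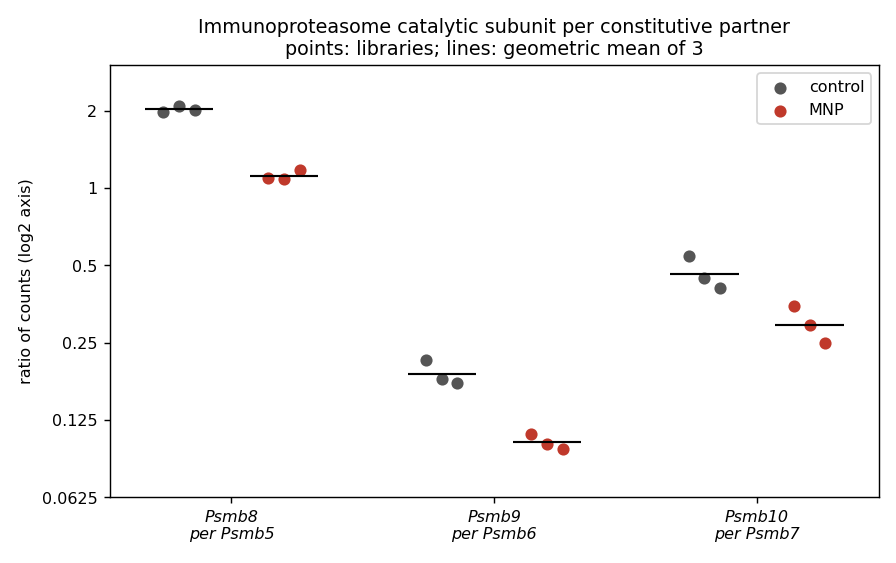
Counts of each immune catalytic subunit per count of its constitutive partner in every library, on a log2 axis; lines are geometric means of 3 libraries. MNP points sit below the control points in all 3 pairs, with Psmb8 per Psmb5 near 2 in controls and near 1 after MNP.

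Per kilobase of annotated transcript, the pairs differed in how much of each was of the immune kind. Psmb8 made up 52.1%, 53.5% and 52.6% of the Psmb8 and Psmb5 sum in controls and 37.5%, 37.3% and 39.2% after MNP. Psmb10 made up 26.6% to 32.4% of its pair in controls and 18.1% to 23.5% after MNP. Psmb9 contributed least, with 9.37% to 11.2% of its pair in controls and 5.38% to 6.08% after MNP. These shares of transcript rest on annotated lengths, and proteins were not measured here.

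In the alpha ring, whose tails gate the entrance of the core, 4 of 7 genes rose and 0 fell (median log2 fold change 0.23, range -0.01 to 0.41). Psma1 was at 68.8, 71.9 and 72.3 CPM in controls and 91.1, 96.4 and 95.2 CPM after MNP (1.33-fold higher, log2 0.41 ± 0.06, edgeR adjusted p = 0.000297). Psma7 went from 97.7, 90.5 and 93.0 CPM to 105.9, 115.7 and 128.8 CPM (1.25-fold higher, edgeR adjusted p = 0.00764), with the MNP libraries wide apart but all above the controls. Psma5 went from 60.7, 64.4 and 60.3 CPM to 79.9, 70.3 and 79.2 CPM (1.24-fold higher, edgeR adjusted p = 0.00815), and again the groups did not overlap. Psma3 was the other member called (1.17-fold higher, edgeR adjusted p = 0.0273), and it lost its call with library totals and without control 2 or MNP sample 3 (edgeR adjusted p = 0.104 to 0.128).

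Psma4 had the largest p of the alpha subunits. It was at 132.3, 136.7 and 140.1 CPM in controls and 129.3, 134.3 and 143.0 CPM after MNP, so the groups overlapped fully (log2 -0.01 ± 0.06, edgeR adjusted p = 0.94). Psma2 and Psma6 had log2 values of 0.18 and 0.15 and were not called (edgeR adjusted p = 0.108 and 0.121). Psma2 passed with no filter (edgeR adjusted p = 0.0342), with the replicate number as a block (0.0189) and without control 3 (0.0354). Psma3, Psma4 and Psma5 have processed pseudogenes at least 95% identical over at least 80% of the reading frame. Among the 39 genes 9 had such a copy, 15 copies in all, and 2 of the copies had a row (Psme2b and A730017L22Rik), so how reads of the rest were assigned is unknown.

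Of the 4 non-catalytic beta subunits, 2 rose and 0 fell (median 0.28, range 0.04 to 0.35). Psmb3 was at 31.1, 32.0 and 31.9 CPM in controls and 38.3, 39.6 and 40.2 CPM after MNP (1.24-fold higher, edgeR adjusted p = 0.00887). Psmb4 was at 73.0, 71.4 and 74.8 CPM and then 86.7, 84.0 and 88.6 CPM (1.18-fold higher, edgeR adjusted p = 0.0122). Replicates of both genes lay close together, and the groups were clearly apart, yet Psmb4 missed with library totals (log2 0.15, edgeR adjusted p = 0.0786) and without MNP sample 3 (0.0532). Psmb1 was at 105.8, 111.0 and 101.0 CPM in controls and 109.1, 103.3 and 113.9 CPM after MNP, with overlapping groups (edgeR adjusted p = 0.725), and its log2 value of 0.04 turned to -0.05 with library totals. Psmb2 was at 7.52, 8.39 and 8.14 CPM in controls and 8.41, 11.5 and 10.8 CPM after MNP. Its log2 value of 0.35 ± 0.14 was not called (edgeR adjusted p = 0.119), except without MNP sample 1 (0.48, edgeR adjusted p = 0.0397).

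**Figure D4:**
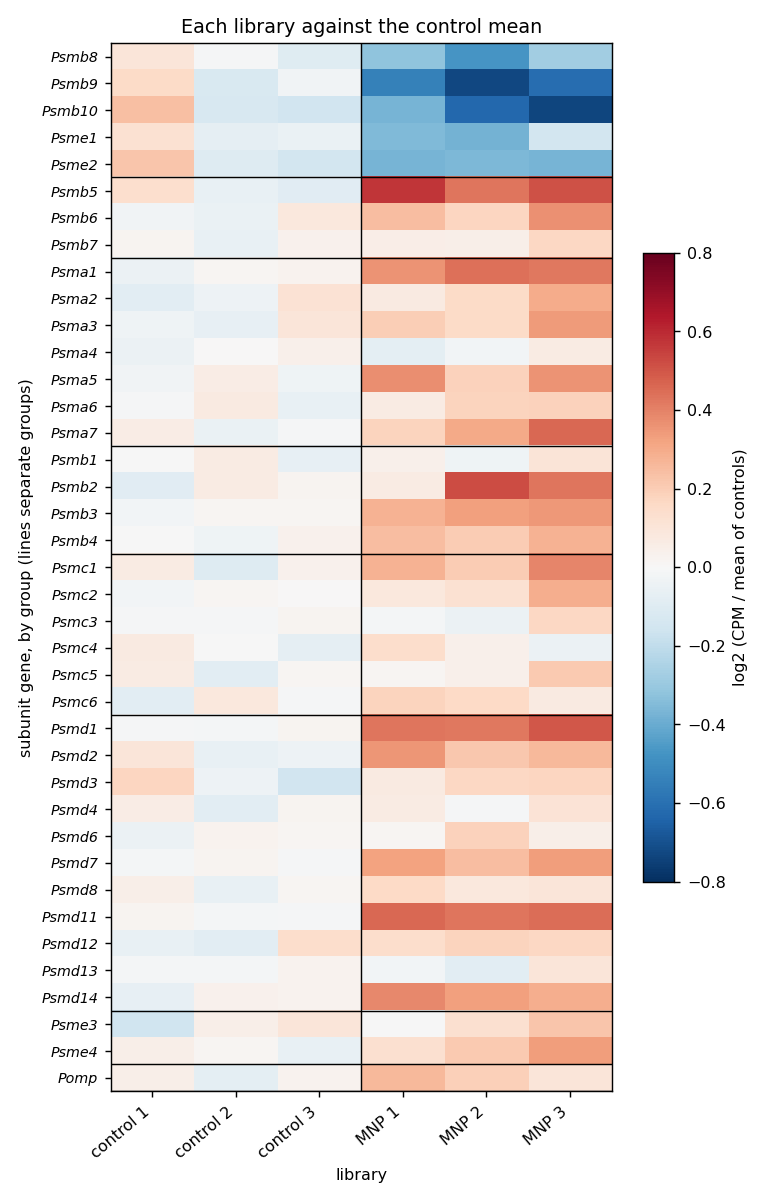
Log2 ratio of each library's CPM to the mean of the controls (colour scale from -0.8 to 0.8) for the 39 genes in rows and the 6 libraries in columns; horizontal lines separate the groups by role. The immunoproteasome rows at the top are blue in all 3 MNP columns, and most rows under them are red there.

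Among the 6 base ATPases, which unfold substrates and thread them into the core, 1 rose and 0 fell (median 0.12, range 0.04 to 0.29). Psmc1 was at 88.1, 78.2 and 86.0 CPM in controls and 101.9, 96.7 and 110.4 CPM after MNP (1.22-fold higher, log2 0.29 ± 0.07, edgeR adjusted p = 0.00978), without overlap. Without MNP sample 3 Psmc1 was not called (edgeR adjusted p = 0.058), which left none of the 6. Psmc2 was at 83.8, 85.7 and 85.1 CPM and then 90.2, 92.5 and 103.8 CPM, apart but not called (log2 0.17 ± 0.07, edgeR adjusted p = 0.0931). Psmc6 was at 82.0, 92.2 and 86.1 CPM and then 98.1, 97.1 and 91.3 CPM, with overlap (edgeR adjusted p = 0.165). Psmc3 was at 130.2, 130.0 and 132.9 CPM and then 129.5, 127.0 and 147.0 CPM, where only MNP sample 3 was above the controls (edgeR adjusted p = 0.737). Psmc4 and Psmc5 had log2 values of 0.05 and 0.09 and were not called.

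Of the 11 other regulatory particle subunits among the 39 genes, 5 rose and 0 fell (median 0.16, highest 0.45). Sem1, a lid subunit outside the 39, fell, and Adrm1, a base subunit outside them, rose. Psmd1, a large scaffold subunit of the base, was at 201.4, 200.6 and 205.6 CPM in controls and 272.2, 271.8 and 286.4 CPM after MNP (1.37-fold higher, log2 0.45 ± 0.05, edgeR adjusted p = 4.56e-05). Psmd11, a lid subunit that braces the particle against the core, was at 80.9, 78.6 and 79.2 CPM and then 109.5, 107.1 and 108.5 CPM (1.36-fold higher, log2 0.45 ± 0.06, edgeR adjusted p = 7.49e-05). In both genes the replicates differed by a few percent and the groups lay far apart. Psmd14, the deubiquitinase that strips ubiquitin from substrates, was at 70.2, 75.2 and 74.9 CPM and then 95.9, 92.1 and 90.0 CPM (1.26-fold higher, log2 0.33 ± 0.06, edgeR adjusted p = 0.00176). Psmd2, the other large base scaffold, rose 1.21-fold (edgeR adjusted p = 0.0068), and Psmd7, the partner of Psmd14 in the lid, rose 1.23-fold (edgeR adjusted p = 0.00528).

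The remaining 6 did not pass. Psmd13 was at 72.8, 72.7 and 75.1 CPM in controls and 72.3, 69.4 and 78.5 CPM after MNP, with overlapping groups (edgeR adjusted p = 0.983). Psmd4, a ubiquitin receptor, and Psmd3, Psmd6, Psmd8 and Psmd12 had log2 values of 0.06 to 0.16 (edgeR adjusted p = 0.179 to 0.63). Psmd3 passed without control 1 (edgeR adjusted p = 0.0479) and Psmd12 without control 3 (0.0476). Psmd11 has a near-identical copy with its own counts, A730017L22Rik (2.85 ± 0.443 CPM in controls and 2.46 ± 0.109 CPM after MNP), and summing both left Psmd11 called (log2 0.43, edgeR adjusted p = 0.000105). Psmd1 shares 252 exonic bases with the opposite-strand gene Htr2b, whose count was 3.03 ± 0.678 and 4.53 ± 0.506 CPM.

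Of the 2 other activators, 1 rose and 0 fell. Psme4, a large nuclear activator, was at 180.6, 176.8 and 167.8 CPM in controls and 191.6, 202.3 and 220.4 CPM after MNP, without overlap (1.17-fold higher, log2 0.23 ± 0.06, edgeR adjusted p = 0.024). Psme4 lost its call with library totals (log2 0.14, edgeR adjusted p = 0.13) and without control 2 or 3 or MNP sample 2 or 3 (edgeR adjusted p = 0.0616 to 0.111). Psme3, the nuclear relative of Psme1 and Psme2, was at 52.1, 60.0 and 62.1 CPM and then 57.9, 63.5 and 67.7 CPM, with overlap (log2 0.12 ± 0.08, edgeR adjusted p = 0.383). Pomp, the chaperone that joins the core's parts during assembly, was at 26.2, 24.1 and 25.9 CPM and then 30.4, 29.0 and 27.2 CPM, apart but not called (log2 0.19 ± 0.08, edgeR adjusted p = 0.155).

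Levels were also compared between genes, per kilobase of transcript. In controls they ran from 123.2 CPM per kb for Psmd8 to 9.34 CPM per kb for Psmb2, while the alpha and beta subunits of a finished core are present in equal numbers. Within the 14 constitutive core genes, 13 lay between 39.8 (Psma2) and 117.1 CPM per kb (Psma4), and Psmb2 stood apart at 9.34 ± 0.52 (SD, n = 3). Psmb9 was the next lowest of the 39 at 11.9 ± 1.18, then Pomp at 16.1 ± 0.719. At the upper end Psmb6, Psme1, Psma7 and Psma6 (106.2, 103.8, 102.5 and 102.1 CPM per kb) did not differ beyond their SDs of 4.0 to 7.87.

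**Figure D5:**
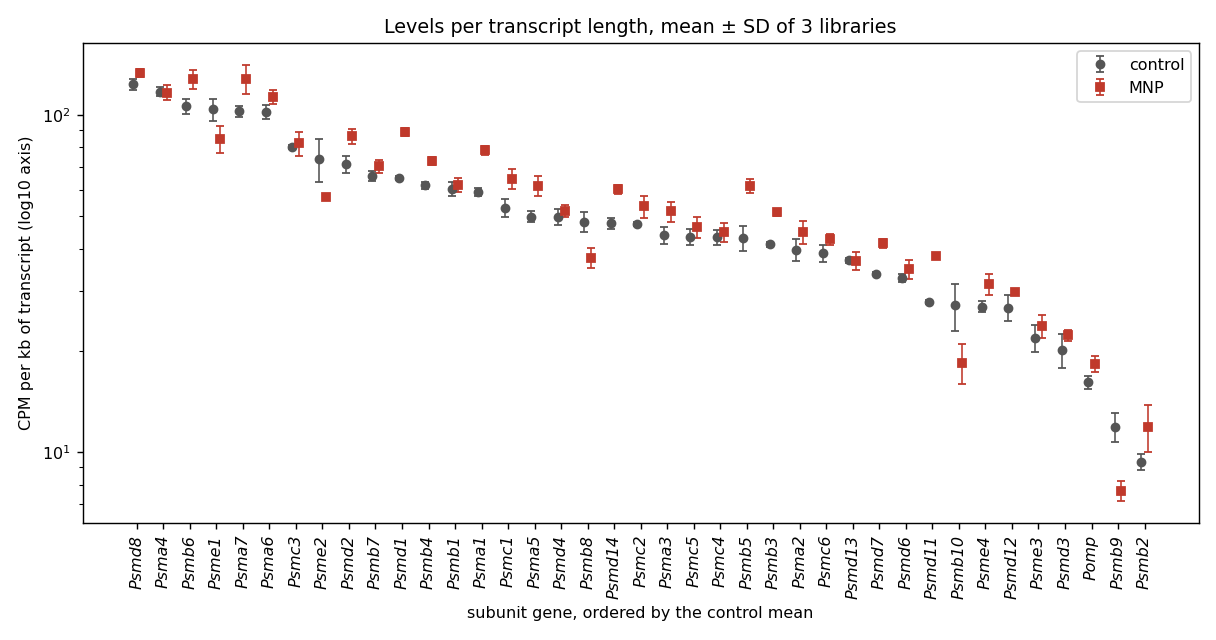
CPM per kilobase of annotated transcript (log10 axis) for the 39 genes, ordered by the control mean; circles are controls, squares MNP samples, bars ± SD of 3 libraries. Psmb2 (9.34 in controls) and Psmb9 (11.9) are lowest, and squares lie below circles for the 5 immunoproteasome genes.

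Genes outside the 39 were followed in 4 lists. Of 17 tested assembly and regulatory factors, 4 rose and 1 fell (median 0.15). Psmd5, a chaperone that holds base ATPases during assembly, rose 1.53-fold from 47.3 ± 1.92 to 72.5 ± 4.5 CPM (SD, n = 3; edgeR adjusted p = 4.23e-05). The ubiquitin receptor Adrm1 rose 1.30-fold, and Ecpas, a scaffold that binds proteasomes, 1.18-fold, the latter not with library totals (edgeR adjusted p = 0.0621). The small lid subunit Sem1 fell 1.22-fold from 156.8 ± 7.03 to 128.9 ± 4.41 CPM (edgeR adjusted p = 0.0036). The other riser, named after its values were seen, was the proteasome-bound thioredoxin relative Txnl1 (1.2-fold, edgeR adjusted p = 0.0142). Of 12 genes for ubiquitin and its delivery, 5 rose and 0 fell (median 0.13). Sqstm1, an autophagy receptor for ubiquitinated cargo and a known NRF2 target, rose 1.70-fold from 314.4 ± 13.5 to 534.8 ± 30.1 CPM. Rad23b, which shuttles ubiquitinated proteins to the proteasome, rose 1.22-fold. The activating enzyme Uba1 rose 1.25-fold and the shuttle Ubqln2 1.21-fold, but neither passed with library totals or without MNP sample 2 or 3 (edgeR adjusted p = 0.0579 to 0.123). The remaining riser, also named after its values were seen, was the shuttle Ubqln1 (1.18-fold, edgeR adjusted p = 0.0318).

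Of 7 genes that control proteasome transcription or its factors, 1 rose and 0 fell (median -0.07). That gene was Vcp, the segregase that extracts ubiquitinated proteins, at 312.4, 314.9 and 311.9 CPM in controls and 428.9, 420.7 and 429.1 CPM after MNP (1.36-fold higher, edgeR adjusted p = 3.48e-05). Neither Nfe2l1, the factor known to raise proteasome genes when the protease is inhibited, nor Nfe2l2, which encodes NRF2, was called (log2 -0.10 and -0.10, edgeR adjusted p = 0.382 and 0.359). Of 16 genes of the interferon gamma axis and of peptide supply to MHC class I, 7 fell and 1 rose (median -0.17). Irf1, a factor known to induce Psmb8, Psmb9 and Psmb10, fell 2.05-fold from 66.4 ± 6.44 to 32.4 ± 2.52 CPM (edgeR adjusted p = 2.51e-06). The class I activator Nlrc5 fell 1.65-fold and Tap1 1.6-fold. The fold changes of Irf1, Nlrc5 and Tap1 exceeded those of the 5 immunoproteasome genes in size, a difference that was not tested. These genes were named for their small p. Some other genes of the list that fell changed less (log2 -0.33 to -0.23), and 8 of the 16 were not called. The gene that rose, named after its values were seen, was Pdia3, a chaperone of the peptide-loading complex (1.12-fold, edgeR adjusted p = 0.0409). Whether Txnl1, Ubqln1 and Pdia3 kept their calls with library totals or without single libraries was not examined.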

How the data were processed

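Whole-number counts per gene symbol were deposited by the authors, 1 file per library, for 3 control and 3 MNP samples. Libraries were prepared from total RNA with a CORALL kit (RNA-seq V2), per the labels' protocols. The tools fastp, STAR, Salmon and GATK and the build GRCm39 are named, without roles or versions, per the submitters' processing notes. Which annotation was used, whether counting was stranded, whether molecular identifiers were collapsed and whether counts were rounded is not given in the sources used here. Groups came from sample titles.

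Counts were fitted with edgeR 4.0.16 (R 4.3.3) using TMM factors, its default filter, the quasi-likelihood F test and Benjamini-Hochberg adjustment over 12893 genes. A gene was called at an adjusted p under 0.05, and each SE was derived from the log2 fold change and its F statistic. Ratios had 0.5 added to each count and were tested by exact permutation (scipy 1.17.1). The steps were tested on simulated data. Replicate pairs gave chi-square per degree of freedom of 7.07 to 19.6, so none looked like a library deposited again.

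The members, lists and tests were chosen with earlier results of these data known. The naming rule gave values in every library for the immunoproteasome set, its partners, Psme3, Psme4 and Pomp, and in each other group for the 3 members with the smallest p and the one with the largest. In each list outside the members it named up to 4 called genes with the smallest p. Transcript lengths (principal transcripts), overlapping exons and near-identical copies (blastn 2.17.0, at least 95% identity over 80% of the reading frame) came from GENCODE M21, of an older build than the files', matched by symbol. RefSeq promoters are of GRCm38.p6. Alternatives were RLE, upper-quartile and library-total scaling, no filter, a stricter filter (1 CPM in 3 libraries), a replicate block, DESeq2 1.42.0, limma-voom (limma 3.58.1) and omission of each library. Summing near-identical copies was added after seeing the data. Some genes of the lists outside the members are not reported here by name.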

Additional observations from a re-analysis of the deposited data

How the results depend on the processing

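In every alternative all 5 immunoproteasome genes kept a negative log2 fold change, and all 5 were called lower except when an MNP library was left out (3 to 5 over all omissions). All 3 pair ratios stayed lower, at -0.90 to -0.84 (Psmb8 per Psmb5), -0.94 to -0.80 (Psmb9 per Psmb6) and -0.78 to -0.54 (Psmb10 per Psmb7) on the log2 scale without each library. None of the other 34 genes was called lower in any alternative. With library totals, genes called higher numbered 1 of 3 constitutive catalytic, 1 of 4 non-catalytic beta, 5 of 14 core and 0 of 2 other activator genes. Medians were then 0.17, 0.14 (alpha ring), 0.19, 0.03 (ATPases), 0.07 (other regulatory particle), 0.08 (other activators), 0.10 (Pomp), 0.16 (core) and 0.05 (regulatory particle); that scaling also turned Psmb1 (-0.05), Psmc3 (-0.05), Psmc4 (-0.04), Psmd4 (-0.03) and Psmd6 (-0.01), none of them called. With no filter the medians of the other regulatory particle subunits and of all 17 particle genes were 0.19 and 0.17, and Psma4 (0.02) and Psmd13 (0.03) changed sign. Psmd13 was 0.00 with RLE factors and with DESeq2.

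Leaving out each library gave 1471 (without MNP sample 2) to 2245 called genes in all, against 2250. Counts called higher were 1 to 2 (constitutive catalytic), 1 to 3 (non-catalytic beta), 0 to 1 (ATPases), 0 to 1 (other activators) and 5 to 9 (core), with medians of 0.12 to 0.24 (other regulatory particle) and 0.12 to 0.17 (all 17 particle genes). Psma4 turned positive without control 3, MNP sample 1 or MNP sample 2 (0.02, 0.03 and 0.00), as did Psmd13 (0.02, 0.01 and 0.04), and Psmc3 turned to -0.03 without MNP sample 3. The causes of these shifts were not tested. The labels do not say that the replicate numbers pair the libraries, so the numbers were not treated as pairs. Deviations from the group means of same-numbered libraries correlated at 0.0867, 0.0282 and -0.0218. Those of differently numbered libraries correlated at -0.103 to 0.084. With 3 libraries per group these values cannot decide whether pairs exist. The replicate block called 2686 genes in all and 16 of the other 34 higher, all 5 of the immunoproteasome set staying lower; beyond Psma2 it changed no call among the 39. Counting error matters most for Psmb2 (157 to 255 counts) and Psmb9 (214 to 371 counts).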

Other observations

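Tissue-restricted relatives of the core subunits were near the counting limit. Psma8, a testis-type alpha subunit, had 20 to 45 counts per library and was not called (edgeR adjusted p = 0.681), and Psmb11, the thymus-type counterpart of Psmb5 and Psmb8, had 0 to 3 counts. The assembly chaperones Psmg1, Psmg2, Psmg3 and Psmg4 had log2 values of 0.09 to 0.25 and none was called (edgeR adjusted p = 0.279 to 0.778). Psmd9 and Psmd10, of the same list, had log2 values of -0.12 and -0.22. Neither was called (edgeR adjusted p = 0.538 and 0.148), although the groups of Psmd10 did not overlap.

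For Psmb2, the core gene with the lowest level per kilobase, no transcript at least 95% identical over 80% of its reading frame, and no overlapping exon of another gene, was found in GENCODE M21. Of the 5 genes with an antioxidant response element match, Psmb5, Psmb6 and Psme4 rose, and Psmc6 and Psmd12 were not called. Among all 34 genes outside the immunoproteasome set, 15 rose. Of these, Psmd7 had no window to search, and most of the rest held no such match. With library totals Psmb6 and Psme4 were not called. A link between the motif and the rise was not tested.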
